A study of Homo sapiens with 30 samples.

Results

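Aminoacyl-tRNA synthetases are the enzymes that load each transfer RNA with its amino acid before translation. The 36 genes described here were taken by symbol from the deposited gene table: 20 encode the enzymes of the cytosol and 16, whose symbols end in 2, those of the mitochondrion. All 36 were found among 58735 genes, and all 36 passed the filter on low counts that left 18296 genes to test. Expression was measured by RNA-seq in LNCaP, an established androgen-dependent human prostate cancer cell line. Every group carried an shRNA that lowers mTOR, a kinase that couples growth to nutrients, and the 5 lines differed in what an inducible system put back: nothing (EV, an empty vector), the unaltered kinase (WT), mTOR kept out of the nucleus by a nuclear export signal (NES), mTOR sent to the nucleus by a nuclear localization signal (NLS), or that nuclear form with the kinase-dead change D2357E (NLSKD). Each line was deprived of androgen for 48 h in 2% charcoal-stripped serum and then received 0.1% ethanol (vehicle) or 10 nM of the synthetic androgen R1881 for 24 h, with 3 samples in each of the 10 groups. The sources used here do not say whether the 3 were separate cultures or whether a line is 1 clone, so a p-value here reflects sample-to-sample spread that could be purely technical.

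Cytosolic synthetases serve the translation of nuclear genes and mitochondrial ones that of the few genes of mitochondrial DNA, although both kinds are encoded in the nucleus. GARS and KARS, for glycine and lysine, supply both compartments, and EPRS joins the enzymes for glutamate and proline in 1 protein. EPRS, IARS, LARS, QARS, MARS, KARS, RARS and DARS sit together in a multisynthetase complex, while the other cytosolic enzymes act outside it. Many cytosolic synthetase genes are known targets of ATF4, a transcription factor made when amino acids run short and also when mTOR complex 1 is active.

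Library totals ran from 21.4 to 61.8 M counts (median 24.5 M). Genes of mitochondrial DNA took 3.9% to 11.7% of the counts. Their share exceeded 9% in replicate 2 of NES and of NLS under R1881, replicate 2 of NLS and of NLSKD under vehicle, and replicate 3 of EV under vehicle, 5 libraries in all. CPM are read counts scaled to the library total over the genes tested, adjusted by TMM factors. MTOR itself was at 25.7 ± 4.86 CPM (SD, n = 3) in EV under vehicle and 66.1 ± 9.54 under R1881. It reached 1840.1 ± 276.4 and 1602.8 ± 182.9 in WT, 5252 ± 2028.2 and 4295.6 ± 1398.3 in NES, 929.9 ± 290.1 and 1036.5 ± 361.5 in NLS, and 1015.9 ± 426.3 and 1082.3 ± 364.7 in NLSKD. The lines thus differed in the amount of MTOR mRNA as well as in where its product is directed, and the effects of amount and place cannot be told apart. The luminal prostate markers KLK3, KRT8, KRT18 and HOXB13 were present in every library. CPM of marker genes was scaled to the raw library total instead. Of 10 markers of basal, stromal, endothelial and blood cells, COL1A2 and CD3E were at 0 in all 30 libraries and COL1A1 (5.38 to 23.5 CPM) and VWF (2.82 to 27.3 CPM) were detected in all. Summed, these markers ran from 29.3 to 38 CPM in NLS and 33.6 to 47.9 CPM in NES under vehicle, and from 23.2 to 27.1 CPM and 17.6 to 20.3 CPM under R1881; their part in the results was not tested. In bulk RNA, fewer cells of a kind and less RNA per cell cannot be told apart.

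Levels per gene length were compared with the deposited FPKM values (fragments scaled by gene length and library depth). The median of a gene's 10 group means was 41 FPKM for the middle cytosolic gene (range 9.43 to 129.9) and 9.46 FPKM for the middle mitochondrial gene (range 0.53 to 67.8). NARS (asparagine), GARS, EPRS, AARS (alanine) and SARS (serine) were the most abundant, at 129.9, 118.7, 100.3, 99.8 and 86.1 FPKM. The ranges of the classes overlapped. IARS2, the mitochondrial isoleucine enzyme, stood at 67.8 FPKM, among the cytosolic genes. HARS (histidine, 12.1 FPKM) and CARS (cysteine, 9.43 FPKM) stood among the mitochondrial ones. SARS2 was lowest at 0.53 FPKM, and 57% of its exonic bases are shared with other annotated genes, so its count is uncertain.

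**Figure D1:**
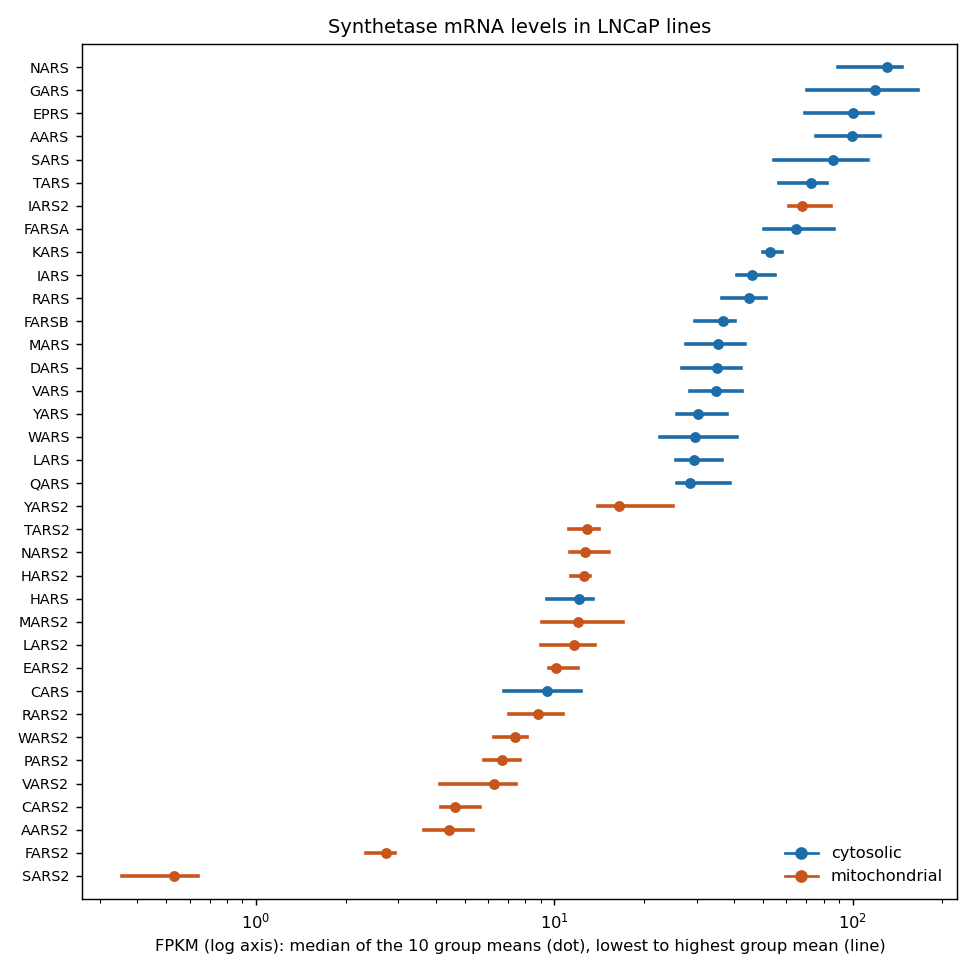
FPKM of the 36 genes on a log axis, ordered by level: each dot is the median of the 10 group means and each line runs from the lowest to the highest group mean, blue for cytosolic and orange for mitochondrial genes. IARS2 at 67.8 FPKM lies among the cytosolic genes, and GARS has the longest relative range, from 70.5 to 165.2 FPKM.

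The genes differed in how far they moved between groups. GARS had the widest range of group means on the FPKM scale, from 70.5 in NES under R1881 to 165.2 in NLSKD under vehicle, a ratio of 2.34. SARS followed at 2.06, again lowest in NES under R1881 (54.5 FPKM) and highest in NLSKD under vehicle (112.3 FPKM). KARS and HARS2 had the narrowest range, each with a ratio of 1.16.

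Across the 17 direct comparisons between groups there were 23 calls at an adjusted p under 0.05, made in 9 of the 36 genes. Of these, 19 fell on 7 cytosolic genes and 4 on 2 mitochondrial genes. The share of all genes called ran from 0.00547% (NLS against NLSKD under R1881) to 9.11% (androgen in EV). It is given below with each comparison, and the number of synthetase calls was not tested against it. SARS and WARS (tryptophan) were called in 5 comparisons each, GARS in 4, YARS2 (mitochondrial tyrosine enzyme) in 3 and CARS in 2. VARS2 (mitochondrial valine enzyme), NARS, YARS (cytosolic tyrosine enzyme) and AARS were each called in 1. None of the 8 enzymes of the multisynthetase complex was called in any of the 17, but the complex was not tested against genes in general. This also depended on the fit. With the replicate block, in comparisons whose numbers pair the samples, EPRS was called in 4, as given with each of them. QARS and MARS were called with the block only in the other comparisons, as given in the closing section. In all 23 calls the samples of the groups compared did not overlap. The share of all called genes without overlap was not computed, so this adds no support to the calls.

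**Figure D2:**
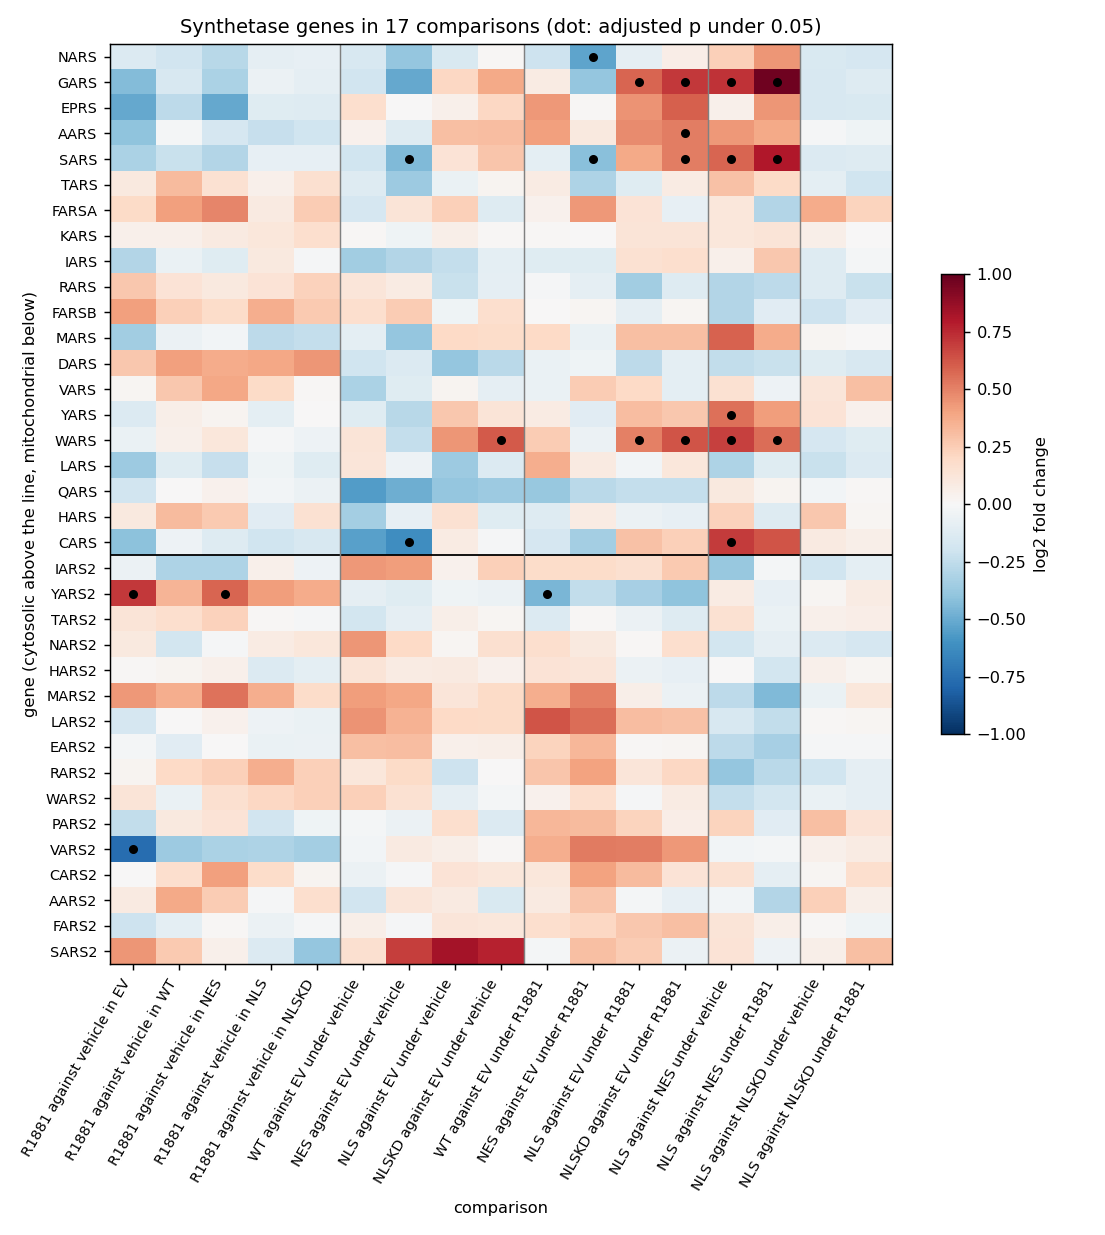
Log2 fold change of each gene (rows, cytosolic above the line and mitochondrial below, each by level) in the 17 comparisons (columns), with a dot on each of the 23 calls at adjusted p under 0.05. The dots on cytosolic genes lie in the comparisons between lines, while 3 of the 4 on mitochondrial genes are on YARS2.

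Androgen moved 2 mitochondrial synthetases in opposite directions in EV cells and no cytosolic one passed the test. YARS2 (ENSG00000139131, hg38 chromosome 12, 32727490 to 32755902, minus strand) was at 30.9, 35.2 and 33 CPM under vehicle and 53.1, 54.6 and 53.9 CPM under R1881. The R1881 samples were all above the vehicle samples, and the rise was 0.71 ± 0.14 on the log2 scale (SE; adjusted p = 0.001, edgeR quasi-likelihood test). VARS2 (ENSG00000137411, hg38 chromosome 6, 30908242 to 30926459, plus strand) was at 55.9, 68.7 and 52.6 CPM under vehicle and 34.6, 34.8 and 35.4 CPM under R1881. It fell by 0.76 ± 0.18 (adjusted p = 0.0052), again with no overlap between the groups. On the same strand, 22% of the exonic bases of VARS2 are shared with GTF2H4. These 2 of 36 genes compare with 9.11% of all genes called in EV.

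YARS2 lay higher under R1881 in each line. In NES it went from 30.3, 31.4 and 29.4 to 41.5, 50 and 44.9 CPM, a rise of 0.58 ± 0.14 (adjusted p = 0.00715), the only synthetase called there against 8.25% of all genes. In WT the samples were at 31.1, 31.2 and 30.6 under vehicle and 35.8, 40.9 and 41.1 CPM under R1881, a difference of 0.34 ± 0.14 that did not pass (adjusted p = 0.178). NLS had 28.3, 37.3 and 30.5 against 37.5, 51.2 and 40.2 CPM (0.42 ± 0.14, adjusted p = 0.0955). In NLSKD the values were 29, 35.4 and 30.4 against 38.1, 45.9 and 38.1 CPM (0.37 ± 0.14, adjusted p = 0.209). All R1881 samples exceeded all vehicle samples of their line in the 5 lines. The share of all genes without overlap was not computed, so this adds no support in the lines where the test did not pass. No synthetase was called in WT, NLS or NLSKD, where 6.48%, 4.44% and 4.08% of all genes were, and at an unadjusted p under 0.05 there were 2, 4 and 2, beside 16.6%, 12.3% and 11.1% of all genes.

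Same-numbered samples deviated together in the androgen comparisons of EV, WT, NES and NLSKD. The correlations were weak in WT (0.13 to 0.21) and NLSKD (0.10 to 0.21). A fit with the replicate number as a block called more of all genes: 13.5% in EV, 10.4% in WT, 13.6% in NES and 5.95% in NLSKD. The block was a single replicate effect over all 30 libraries, also those of comparisons not taken as paired. In WT and NLSKD it added YARS2 (0.34, adjusted p = 0.0481, and 0.37, adjusted p = 0.0472). In EV the block added CARS (−0.40, adjusted p = 0.0493) and EPRS (−0.50, adjusted p = 0.0166), making 4. In NES it added EPRS (−0.48, adjusted p = 0.0212), CARS2 (0.41, adjusted p = 0.0286) and MARS2 (0.53, adjusted p = 0.0348), also making 4. Without NES R1881 replicate 2 the NES call on YARS2 was lost (adjusted p = 0.0534), whereas both EV calls held without each of the 6 libraries in turn (adjusted p at most 0.0406).

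VARS2 was lower under R1881 in the other 4 lines without passing the test. Its log2 difference was −0.36 in the WT line, −0.32 with NES, −0.31 with NLS and −0.34 with NLSKD, each with an SE of 0.18. Among cytosolic genes in EV, 12 of 20 lay below 0, with a median of −0.14 beside −0.04 over all genes, and EPRS (−0.51), GARS (−0.43), CARS (−0.41) and AARS (−0.40) lay lowest.

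The androgen response of each rescue line was then compared with that of EV. None of the 36 genes was called in any of the 4 differences, and none had an unadjusted p under 0.05. Such a p was rare among all genes too, with shares from 2.68% (NES) to 3.86% (WT). Its absence from 36 genes therefore says little. Over all genes the calls were 0.0437% in WT and 0% in NES, and 0.0164% in each of the nuclear lines. For YARS2 the differences from EV were −0.36 ± 0.20, −0.13 ± 0.20, −0.28 ± 0.20 and −0.34 ± 0.20 in that order, all negative. For VARS2 they were 0.39, 0.43, 0.45 and 0.42, each with an SE of 0.25. A smaller response in the rescue lines was therefore not shown for either gene.

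Each rescue line was next set against EV under vehicle. These 4 comparisons share the 3 EV samples, so their values are not independent. NES had 2 lower synthetases, SARS and CARS, both cytosolic, against 4.94% of all genes called. SARS (ENSG00000031698, hg38 chromosome 1, 109213918 to 109238169, plus strand) was at 356.3, 354.8 and 357.7 CPM in EV and 308.1, 251.1 and 226.5 CPM in NES. Every NES sample was below every EV sample, and SARS fell by 0.44 (adjusted p = 0.0323). CARS (ENSG00000110619, hg38 chromosome 11, 3000922 to 3057613, minus strand) was at 113.4, 139.2 and 98.2 CPM in EV and 70.4, 77.5 and 80.2 CPM in NES. It fell by 0.62 (adjusted p = 0.0274). In NES 16 of 20 cytosolic genes lay below 0 (median −0.19) and 11 of 16 mitochondrial genes above it (median 0.13), beside a median of 0.00 over all genes.

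NLSKD had 1 higher synthetase under vehicle, WARS, against 4.01% of all genes. WARS (ENSG00000140105, hg38 chromosome 14, 100333788 to 100376805, minus strand), an enzyme whose gene is also known to be induced by interferon, was at 176.2, 149.1 and 188 CPM in EV and 256, 272.1 and 253 CPM in NLSKD, all above EV. It rose by 0.61 (adjusted p = 0.00547). In NLS, at 251.2, 198.8 and 245.5 CPM, the difference from EV was 0.44 (adjusted p = 0.0536), which passed with the replicate block (adjusted p = 0.00977), the numbers pairing the samples there. It was the 1 synthetase that the block called, against 8.59% of all genes. No synthetase was called in NLS or WT against EV under vehicle, where 4.57% and 6.71% of all genes were. At an unadjusted p under 0.05 there were 3 and 4, beside 14.8% and 17.2% of all genes. The lowest adjusted p in WT was that of CARS, at 77.2, 85.7 and 78.7 CPM (−0.54, adjusted p = 0.0527).

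These calls rested on few samples. The 2 calls in NES were each lost in 5 of 6 fits that left out 1 library, CARS except without EV vehicle 3 (adjusted p up to 0.189) and SARS except without NES vehicle 1 (up to 0.252), and that of WARS in NLSKD without EV vehicle replicate 2 (adjusted p = 0.0542). Without the libraries whose mitochondrial share was above 9%, SARS in NES was at −0.43 and no longer passed (adjusted p = 0.088).

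Under R1881 cytosolic synthetases were called higher than EV in the nuclear forms, 4 in NLSKD and 2 in NLS, and 2 were called lower in NES. The 4 comparisons again share their EV samples. In NLSKD these were SARS, GARS, WARS and AARS, 4 of 36 against 5.75% of all genes. In NLS, GARS and WARS were higher, against 6.23% of all genes. In NES, SARS and NARS were lower, against 6.96%, and in WT only YARS2 was called, lower, against 8.49%. In NLS, NES and WT the synthetases were thus called no more often than genes in general.

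GARS (ENSG00000106105, hg38 chromosome 7, 30594681 to 30634033, plus strand) was at 371.6, 409.9 and 398 CPM in EV under R1881. NLSKD had 612.1, 677.1 and 645.1 CPM and NLS 668.1, 557 and 540.5 CPM, all above EV. GARS was higher by 0.71 in NLSKD (adjusted p = 0.00596) and by 0.58 in NLS (adjusted p = 0.0251). WT, at 482.1, 362.9 and 404.4 CPM, overlapped EV. For WARS the EV samples were at 161.2, 160.6 and 165.9 CPM. NLSKD had 251.8, 254.4 and 247.7 CPM and NLS 250.1, 201.9 and 239.7 CPM, which is 0.63 (adjusted p = 0.00323) and 0.50 (adjusted p = 0.0176) higher. In both genes the 6 samples of the nuclear forms lay above the 3 of EV.

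SARS under R1881 was at 282.6, 297.2 and 278.2 CPM in EV. It was at 412.9, 427.4 and 382.5 CPM in NLSKD, higher by 0.51 (adjusted p = 0.0114), and at 211.5, 201.2 and 229.4 CPM in NES, lower by 0.42 (adjusted p = 0.0376). EV thus lay between NES and NLSKD with no overlap. AARS (ENSG00000090861, hg38 chromosome 16, 70252295 to 70289543, minus strand) was at 351, 322.6 and 345.2 CPM in EV and 492.5, 508.7 and 448.5 CPM in NLSKD, higher by 0.51 (adjusted p = 0.0456). NARS (ENSG00000134440, hg38 chromosome 18, 57600656 to 57622213, minus strand) was at 536.9, 547.5 and 533.1 CPM in EV and fell by 0.53 in NES, to 382.1, 382 and 356.5 CPM (adjusted p = 0.0319).

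Among the mitochondrial genes, YARS2 was highest in EV under R1881 and fell by 0.46 in WT (adjusted p = 0.0395). Its differences from EV were −0.25 in NES, −0.33 in NLS and −0.40 in NLSKD, none of which passed. In NES 15 of 16 mitochondrial genes lay above 0, YARS2 being the exception, with a median of 0.29 beside 0.03 over all genes and −0.06 over the cytosolic genes. LARS2 (0.56, adjusted p = 0.207), VARS2 (0.52, adjusted p = 0.0764) and MARS2 (0.50, adjusted p = 0.199) lay highest there. None of the 16 passed upward in this fit. The replicate block did call mitochondrial genes higher in NES, as given in the closing section, but the numbers were not taken to pair those samples. In NLS the medians were 0.15 for the cytosolic genes (12 of 20 above 0) and 0.09 for the mitochondrial ones (11 of 16), and in NLSKD 0.12 (14 of 20) and 0.08 (10 of 16), so the classes lay close together there. No test of a difference between the classes was made.

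The numbers paired the samples of NLS and of NLSKD with those of EV under R1881. With the block 7 synthetases were called in NLS in place of 2: GARS, WARS, AARS (0.47), EPRS (0.43), SARS (0.38) and VARS2 (0.50) higher and YARS2 (−0.34) lower, with adjusted p from 0.00259 to 0.0493. Over all genes the block called 10.7% in place of 6.23%. In NLSKD 6 were called in place of 4, adding EPRS (0.60, adjusted p = 0.00536) and YARS2 (−0.41, adjusted p = 0.015), while over all genes it called 10.0% in place of 5.75%.

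Leaving out 1 library ended many of these calls. GARS and WARS in NLSKD held without each of the 6 libraries (adjusted p at most 0.0384 and 0.0189), but both were lost with no filter on low counts (adjusted p = 0.0735 and 0.171) and WARS with only the groups compared (adjusted p = 0.0506). SARS in NLSKD was lost without EV R1881 3, NLSKD R1881 1 or NLSKD R1881 2 (adjusted p up to 0.0554). GARS in NLS was lost without any EV library or NLS R1881 1 (up to 0.106), and WARS in NLS without any EV library, NLS R1881 1 or NLS R1881 3 (up to 0.0717). AARS in NLSKD, SARS and NARS in NES and YARS2 in WT were lost in each of the 6 fits, with adjusted p up to 0.15, 0.166, 0.115 and 0.118.

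**Figure D3:**
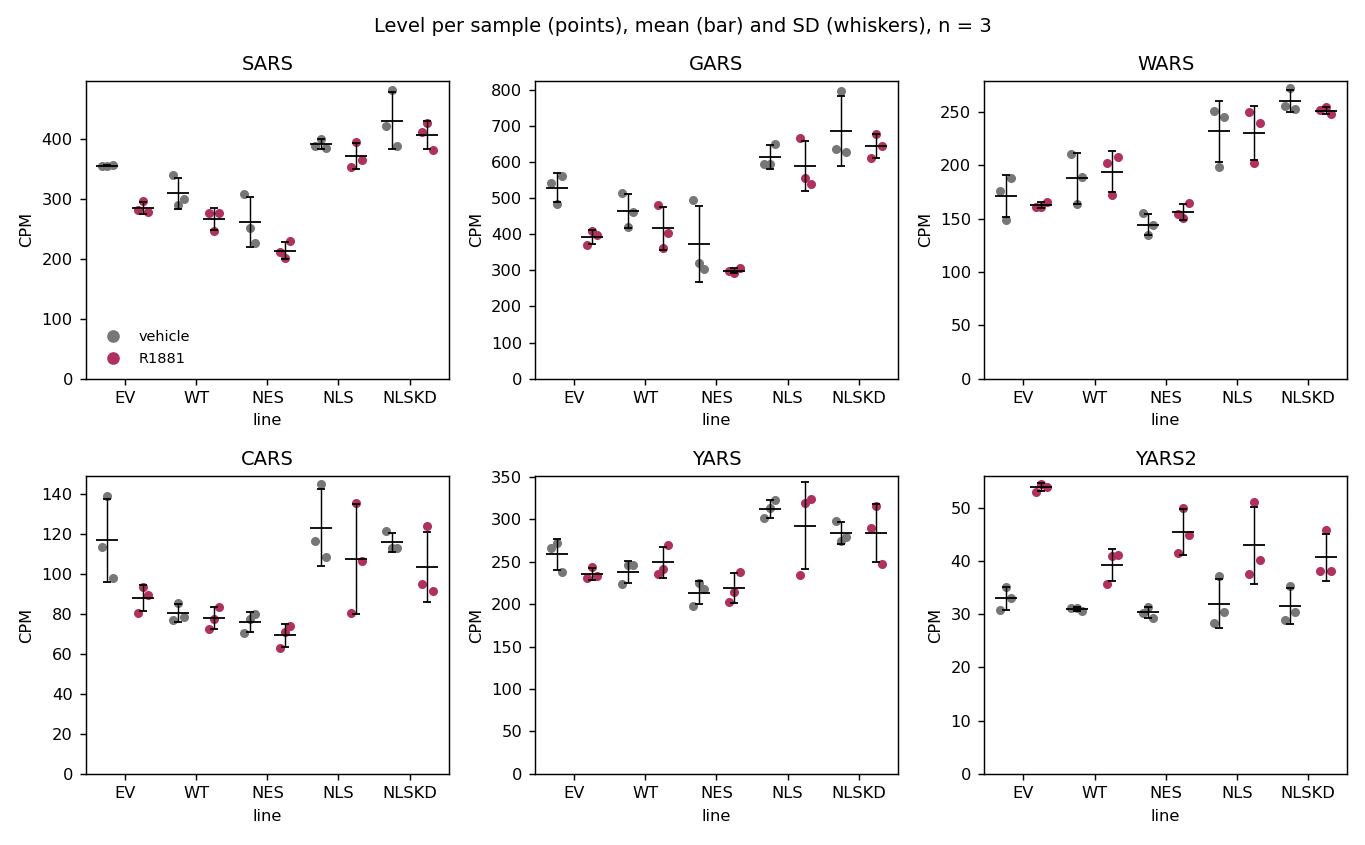
CPM of 6 synthetases in each of the 30 samples (points, grey for vehicle and red for R1881), with the mean (bar) and SD (whiskers, n = 3) of each line and treatment. SARS under R1881 lies between 201.2 and 229.4 CPM in NES and between 353.2 and 395.5 in NLS, while YARS2 is highest in EV under R1881.

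Nuclear mTOR was then compared with mTOR kept out of the nucleus. NLS exceeded NES in 5 cytosolic synthetases under vehicle (GARS, CARS, WARS, SARS and YARS) and in 3 under R1881 (GARS, SARS and WARS), and no mitochondrial synthetase was called. Over all genes 1.03% were called under vehicle and 1.37% under R1881. No synthetase was lower in NLS in either treatment.

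Under vehicle GARS was at 595.2, 595.8 and 651.7 CPM in NLS and 495.8, 320.1 and 303.5 CPM in NES. NES replicate 1 stood above replicates 2 and 3, yet all NLS samples exceeded it, and the difference was 0.72 (adjusted p = 0.02). SARS was at 389.4, 401.4 and 385.3 CPM in NLS and between 226.5 and 308.1 CPM in NES, a difference of 0.58 (adjusted p = 0.0139). WARS was at 154.9, 134.8 and 143.7 CPM in NES, below the 3 NLS samples by 0.68 (adjusted p = 0.00587). CARS was at 116.5, 145 and 108.7 CPM in NLS, higher by 0.70 (adjusted p = 0.0366). YARS (ENSG00000134684, hg38 chromosome 1, 32775237 to 32818153, minus strand) was at 301.4, 313.3 and 322.8 CPM in NLS and 198.3, 224.4 and 217.8 CPM in NES, higher by 0.55 (adjusted p = 0.0333).

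Under R1881 GARS was at 299.4, 293.8 and 305.4 CPM in NES, a narrow group well below the NLS values of 540.5 to 668.1 CPM. The difference of 0.97 ± 0.16 was the largest of any synthetase call (adjusted p = 0.000896). SARS, at 353.2, 395.5 and 365.9 CPM in NLS, was higher by 0.80 ± 0.12 (adjusted p = 0.000596). WARS was at 154, 150.2 and 164.6 CPM in NES and was higher in NLS by 0.56 ± 0.13 (adjusted p = 0.0251). CARS was at 80.6, 135.7 and 106.8 CPM in NLS, a wide group, and 63.1, 71.2 and 74.2 CPM in NES. Its difference of 0.63 did not pass (adjusted p = 0.0596). With the replicate block, whose numbers paired the samples under R1881, CARS passed (0.61, adjusted p = 0.00941), making 4 synthetases, against 2.96% of all genes. YARS was at 233.8, 319.4 and 324.4 CPM in NLS and 202.9, 214.8 and 237.8 CPM in NES, groups that overlapped (0.42, adjusted p = 0.138).

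As a class, 16 of 20 cytosolic genes lay above 0 under vehicle and 13 of 20 under R1881, with medians of 0.19 and 0.23 on the log2 scale beside 0.00 over all genes. The 12 enzymes outside the multisynthetase complex had medians of 0.36 and 0.40, and the 8 inside it 0.05 and 0.08. Below 0 in both treatments were LARS, RARS and DARS of the complex and FARSB, a subunit of the phenylalanine enzyme; none passed. The mitochondrial medians were −0.03 and −0.10, and under R1881 only FARS2 (0.06) of the 16 lay above 0.

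Without the libraries whose mitochondrial share was above 9% (NLS vehicle 2, NES R1881 2 and NLS R1881 2 among these groups), 1 call remained under vehicle, WARS (0.78, adjusted p = 0.00599), and 2 under R1881, GARS (1.02, adjusted p = 0.0168) and SARS (0.72, adjusted p = 0.0248). WARS under vehicle and GARS and SARS under R1881 also held without each single library (adjusted p at most 0.0473, 0.00989 and 0.00876). With only the groups compared in the fit, these 3 were lost (0.70, 1.02 and 0.84, adjusted p = 0.41, 0.174 and 0.211), and WARS under vehicle was also lost with no filter on low counts (adjusted p = 0.126). Under vehicle the calls were lost for YARS in all 6 fits (adjusted p up to 0.156), for GARS except without NES vehicle 1 (up to 0.143), for CARS except without NLS vehicle 3 (up to 0.276), and for SARS without NES vehicle 2 or 3 or NLS vehicle 1 or 2 (up to 0.108). WARS under R1881 was lost except without NLS R1881 2 (up to 0.131).

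**Figure D4:**
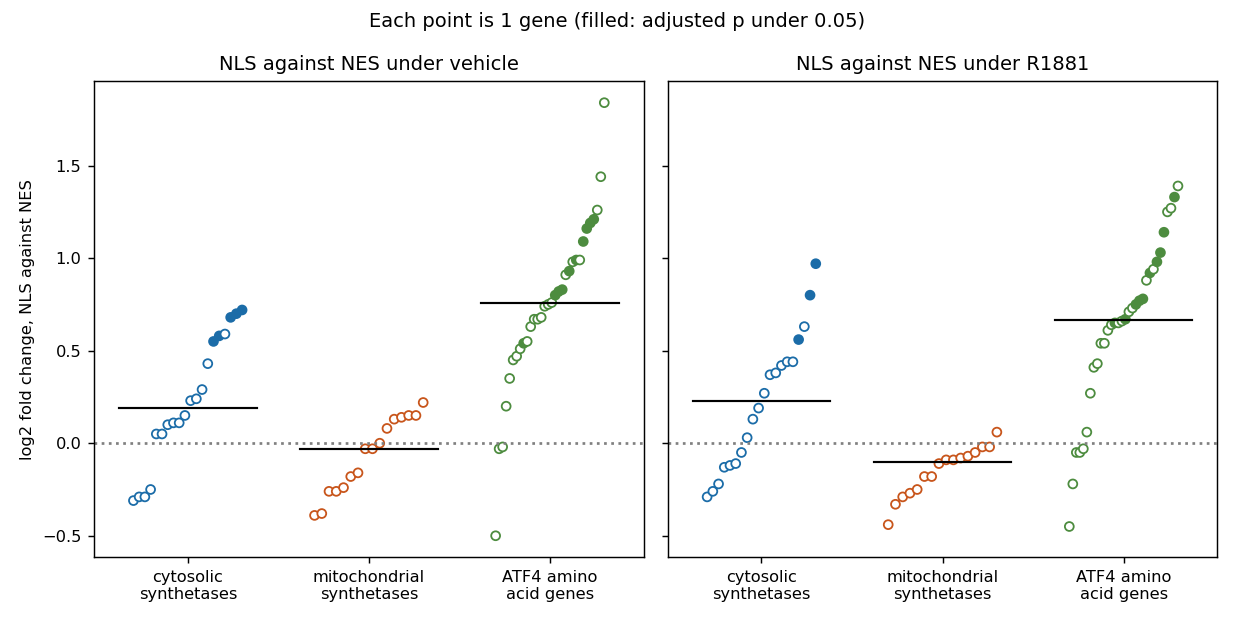
Log2 fold change of NLS against NES under vehicle (left) and R1881 (right) for 20 cytosolic synthetases, 16 mitochondrial synthetases and 32 amino acid genes linked to ATF4: each point is a gene, filled where its adjusted p is under 0.05, solid bars are medians and the dotted line is the median of all genes. Filled points are above 0 in the cytosolic and ATF4 lists, and no mitochondrial point is filled.

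The kinase-dead form was compared with its active counterpart. NLS and NLSKD did not differ in any synthetase at the threshold under either treatment. None had an unadjusted p under 0.05, beside only 1.63% of all genes under vehicle and 1.95% under R1881. Over all genes 0.0109% and 0.00547% were called (0.0273% under vehicle with the replicate block, which called 0 synthetases). The 36 log2 differences ran from −0.22 to 0.37 under vehicle and from −0.22 to 0.30 under R1881. SARS, at 423.1, 483.4 and 388.2 CPM in NLSKD under vehicle, and GARS, at 635.8, 798.3 and 627 CPM, overlapped the NLS samples.

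The balance of the classes was described by the ratio of their summed FPKM. IARS2 alone made up a large part of the mitochondrial sum. Under vehicle it was 84.8 of 216.2 FPKM in NES (samples at 117.8, 66.8 and 69.9) and 63.2 of 183.5 in EV. Under R1881 it was 67.4 FPKM in NES, 61 in EV and 67.8 in NLS. The ratio without IARS2 was not computed. Per sample the ratio was 6.22, 6.42 and 5.92 in EV under vehicle and 4.94, 5.83 and 5.31 under R1881. In WT it was 4.85, 4.75 and 4.97 under vehicle and 5.22, 4.85 and 5.11 under R1881. NES was lowest, at 4.51, 4.66 and 4.36 under vehicle and 4.08, 4.59 and 4.29 under R1881. The nuclear forms were near EV under vehicle: NLS had 6.07, 6.68 and 5.84, and NLSKD 6.16, 6.5 and 5.84. Under R1881 NLS had 5.27, 6.43 and 5.68, and NLSKD 5.66, 6.78 and 5.66. All 6 NES samples lay below all samples of EV, NLS and NLSKD, while WT and EV overlapped under R1881. Summed cytosolic FPKM was 926.9 ± 14.4 in NES and 1149.9 ± 20.8 in NLS under R1881, and the mitochondrial sum 215.2 ± 16 and 199.9 ± 22.8 (SD, n = 3). GARS and KARS serve both compartments. With both taken out of the cytosolic sum, which must lower the ratio, the group means ran from 3.75 in NES under R1881 to 5.21 in EV under vehicle.

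**Figure D5:**
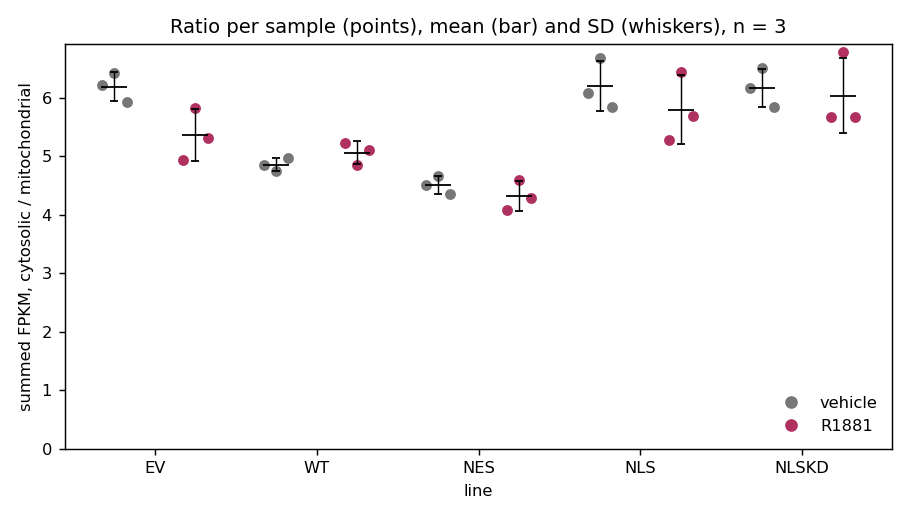
Ratio of summed cytosolic to summed mitochondrial synthetase FPKM in each sample (points, grey for vehicle and red for R1881), with the mean (bar) and SD (whiskers, n = 3); the axis starts at 0. The 6 NES samples lie between 4.08 and 4.66, below every EV, NLS and NLSKD sample.

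Other genes of the pathway were followed through 3 lists. Of 32 genes of amino acid supply and stress linked to ATF4, none of them a synthetase, 10 were higher and 0 lower in NLS than in NES under each treatment, beside 1.03% and 1.37% of all genes called. Their medians were 0.76 under vehicle and 0.66 under R1881. Under vehicle the 4 with the lowest adjusted p were TRIB3, a stress-induced pseudokinase (1.19, adjusted p = 3.12e-05), GPT2, an alanine aminotransferase (0.83, adjusted p = 0.00259), PCK2, mitochondrial PEP carboxykinase (1.16, adjusted p = 0.00418), and the glutamine carrier SLC1A5 (0.80, adjusted p = 0.0078). Under R1881 they were TRIB3 (0.98, adjusted p = 0.00031), PSPH of serine synthesis (0.78, adjusted p = 0.00073), PCK2 (1.14, adjusted p = 0.0033) and MTHFD2 of mitochondrial one-carbon metabolism (1.03, adjusted p = 0.00581).

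Against EV under R1881 the same list had 10 higher and 1 lower gene in NLS and 11 higher and 1 lower in NLSKD, with a median of 0.58 in each and beside 6.23% and 5.75% of all genes called. The lower gene was SLC7A5, the large neutral amino acid carrier, at −2.78 in NLS (adjusted p = 6.6e-07) and −2.81 in NLSKD (adjusted p = 6.52e-07). SLC7A5 was also lower in NES (−4.11, adjusted p = 1.76e-09) and WT (−3.81, adjusted p = 3.92e-09) under R1881. In NES against EV the list had 1 higher and 1 lower gene under R1881 (median −0.10), beside 6.96% of all genes called. Under vehicle it had 0 higher and 1 lower (median −0.36, with 30 of 32 below 0), beside 4.94%. NLS and NLSKD did not differ in any of the 32, beside 0.0109% of all genes under vehicle and 0.00547% under R1881. With androgen in EV 1 was higher and 6 lower (median −0.43, beside 9.11% of all genes called), led by PSPH (−0.76, adjusted p = 9.82e-05) and PSAT1, also of serine synthesis (−0.81, adjusted p = 0.00418).

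Calls among partners of the synthetases are given beside the share of all genes called. Of 9 such genes, including the complex scaffolds AIMP1, AIMP2 and EEF1E1 and the tRNA exporter XPOT, none was called between NLS and NES. Over all genes 1.03% were called there under vehicle and 1.37% under R1881. AIMP2 was lower with androgen in EV (−0.45, adjusted p = 0.0273) and in WT against EV under vehicle (−0.43, adjusted p = 0.0477). It was the 1 partner called in each, beside 9.11% and 6.71% of all genes. PSTK, a kinase of selenocysteine tRNA loading, was higher than EV under R1881 in NES (0.76, adjusted p = 0.0248) and NLSKD (0.79, adjusted p = 0.0216). Over all genes 6.96% and 5.75% were called there. Of 12 mitochondrial translation factors only MTFMT, which formylates the initiator tRNA, was called. It was lower in NLS than in EV under vehicle (−0.59, adjusted p = 0.0244) and under R1881 (−0.60, adjusted p = 0.0183), beside 4.57% and 6.23% of all genes called.

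Promoter sequence was examined because cytosolic synthetases and 10 of the 32 ATF4-linked genes were called higher in the same comparison, NLS against NES. The core TGATGNAA, in which ATF4 pairs with a C/EBP protein, was searched on both strands from 250 bases before to 50 bases after each RefSeq start (GRCh38.p14). Of the 36 genes 30 had an entry, some with several starts. The core was in 7 of 16 cytosolic genes (43.8%) and 1 of 14 mitochondrial genes (7.14%), beside 4.46% of 27305 genes with the same kind of window. The stretches around it are shown so that the shared element can be seen, 5′ to 3′ along the gene's strand, with the core in capitals (in 6 of the 8 it reads 5′ to 3′ on the opposite strand).
AARS, chr16:70289675-70289704, minus strand: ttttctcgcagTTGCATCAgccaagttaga
CARS, chr11:3057407-3057436, minus strand: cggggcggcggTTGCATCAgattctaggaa
GARS, chr7:30594834-30594863, plus strand: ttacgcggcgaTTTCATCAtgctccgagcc
IARS, chr9:92293692-92293721, minus strand: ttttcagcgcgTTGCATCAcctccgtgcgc
MARS, chr12:57488053-57488082, plus strand: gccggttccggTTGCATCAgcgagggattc
NARS, chr18:57621804-57621833, minus strand: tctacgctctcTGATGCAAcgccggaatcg
TARS, chr5:33440956-33440985, plus strand: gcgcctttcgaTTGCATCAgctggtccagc
YARS2, chr12:32756076-32756105, minus strand: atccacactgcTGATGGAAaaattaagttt

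In 6 of the 7 cytosolic genes, all but GARS, the core had C at its open base (TGATGCAA), a form present in 1.08% of all genes and chosen for counting after these sequences were seen. The first base of the match lay 187 bases before the start in AARS, 33 in GARS, 13 in IARS, 4 in MARS and 2 in CARS, and at base 3 after it in TARS and base 15 in NARS; in YARS2 it lay 197 bases before. Of the genes called between NLS and NES, GARS and CARS hold the core, SARS and WARS do not have it in their windows, and YARS had no entry. The other 5 cytosolic genes that hold it, AARS (0.43 and 0.38), IARS (0.05 and 0.27), MARS (0.59 and 0.37), NARS (0.24 and 0.44) and TARS (0.29 and 0.19), did not pass that comparison under vehicle or R1881. Of the 32 ATF4-linked genes 24 had an entry and 8 held the core, including ASNS, CHAC1 and SLC1A5. The E-box CACGTG was in 1 of 16 cytosolic genes (IARS) and 3 of 14 mitochondrial genes (CARS2, EARS2 and MARS2), beside 8.77% of all genes. The full androgen response element, AGAACA and TGTTCT with 3 bases between them, was in none of the 30, but only 1 of the 27305 genes holds it, so this says nothing about the synthetases. These are matches of letters and do not show binding.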

How the data were processed

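RNA of 30 LNCaP samples was read in pairs of 150 bases. Per the file headers, the authors deposited raw read counts and FPKM values per gene and library; the submitters' processing notes name HISAT2 2.0.5, featureCounts 1.5.0-p3 and hg38. The strand setting is not given in the sources used here, so counts of overlapping genes are uncertain (HARS with HARS2, MARS with DDIT3, WARS with WDR25, GARS with GARS-DT, VARS2 with GTF2H4). All 58735 identifiers were those of GENCODE release 29.

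Counts were fitted in R 4.3.3 with edgeR 4.0.16 (TMM, filterByExpr, quasi-likelihood test, two-sided), 1 mean per group over all 30 libraries, with Benjamini-Hochberg adjustment over 18296 genes per comparison and calls at 0.05. SE is the one implied by the F statistic. The 21 comparisons were 17 direct ones and 4 differences of androgen responses. FPKM served, without a test, for levels between genes, for the range of a gene's group means and for class sums. Promoter windows are RefSeq's. The code was tested on simulated data. Results of 2 marker genes are not reported here.

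The members and gene lists were chosen with earlier results of these data known. All 36 members could be named, with sample values for those called most often, and of each other list up to 4 called genes per comparison. Replicate numbers were taken to pair samples where every same-number correlation of deviations from the group means was above 0.1, in 9 of 17 comparisons (pair values from −0.28 to 0.64). Alternatives were RLE factors, no low-count filter, DESeq2 1.42.0, a replicate block, only the groups compared, each library left out and, chosen after seeing the data, omission of libraries with a mitochondrial share over 9%.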

Additional observations from a re-analysis of the deposited data

How the results depend on the processing

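No call changed direction. Of the 23 calls, 23 were kept with the replicate block, 23 with DESeq2, 22 with RLE factors, 4 with no filter on low counts, 4 with only the groups compared, and 10 of 18 without the libraries whose mitochondrial share was above 9%. Over the fits that left out 1 library, 65 of 138 held. The cause of these losses was not tested; fits of only the groups compared, or without a library, have fewer samples.

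The count of synthetases called moved by more than 1.5 times in these cases. For the androgen response it was 1 in NES, and 0 with no filter or with only the groups compared, 2 with DESeq2 and 2 when those libraries of high mitochondrial share were omitted. In NLS it was 0, and 1 with DESeq2. For NES against EV under vehicle it was 2, and 0 with no filter, 0 with only the groups compared and 1 without those libraries. NLS against EV under vehicle had 0, and 1 with DESeq2 and 1 without those libraries. WT against EV under vehicle had 0, and 1 with DESeq2, 1 with RLE factors and 1 without those libraries. NLSKD against EV under vehicle had 1, and 0 with no filter or with only the groups compared.

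Under R1881, WT against EV had 1, and 0 with no filter or with only the groups compared. NES against EV had 2, and 0 with no filter, 1 with only the groups compared and 0 when those libraries were omitted. NLS against EV had 2, and 4 with DESeq2 and 0 with no filter or with only the groups compared. NLSKD against EV had 4, and 0 with no filter and 1 with only the groups compared. NLS against NES had 3, and 5 with DESeq2, 2 with no filter, 0 with only the groups compared and 2 without those libraries. Under vehicle NLS against NES had 5, and 0 with no filter, 0 with only the groups compared and 1 without those libraries.

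With the replicate block the counts were 4 for androgen in both EV and NES and 1 in each of WT, NLS and NLSKD; 2, 4 and 1 for WT, NES and NLS against EV under vehicle; and 3, 6, 7 and 6 for WT, NES, NLS and NLSKD against EV under R1881. They were 6 and 4 for NLS against NES under vehicle and R1881. In 8 of the 17 comparisons not every same-number correlation was above 0.1, so the numbers were not taken to pair the samples. Whether they do is not settled, as the pair values for androgen in NLS were 0.32, 0.64 and −0.02. The 8 were androgen in NLS, and WT, NES and NLSKD against EV under vehicle. They also included WT and NES against EV under R1881, NLS against NES under vehicle, and NLS against NLSKD under R1881. In those 8 the block called 3 genes of the multisynthetase complex: QARS in WT (−0.55) and NES (−0.48) against EV under vehicle, EPRS in WT against EV under R1881 (0.43) and MARS in NLS against NES under vehicle (0.58). Of the mitochondrial genes it called CARS2 (0.40), LARS2 (0.58), RARS2 (0.40) and VARS2 (0.52) higher in NES against EV under R1881. In WT against EV under R1881 it called LARS2 higher (0.69) and YARS2 lower (−0.46). With androgen in NLS it called YARS2 higher (0.42). The share of all genes called with the block was not set beside these calls.

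Leaving out 1 library gave counts from 2 to 3 for androgen in EV, from 0 to 1 in NES and from 0 to 1 in NLS. The counts ran from 0 to 1 for WT against EV under vehicle, from 0 to 3 for NES, from 0 to 1 for NLS and from 0 to 1 for NLSKD. Under R1881 they were 0 in every fit for WT and for NES, from 0 to 2 for NLS and from 2 to 3 for NLSKD against EV. For NLS against NES they ran from 1 to 3 under vehicle and from 2 to 4 under R1881. NLS against NLSKD and the differences of androgen responses had 0 in every fit run. Taking GARS and KARS out of the cytosolic sum alone must lower the ratio of class sums, so its fall is not a result. The ratio went from 6.19 to 5.21 in EV under vehicle and from 4.32 to 3.75 in NES under R1881. NES still had the lowest group mean in each treatment (3.87 under vehicle).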
